A study of Mus musculus with 20 samples.

Results

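Gin1, Armc9, Farsb, Ngef and Col19a1 are 5 genes that lie on chromosome 1 with Hdac4 but more than 100 genes away from it, and that were picked because their array signals differed between Hdac4KO and WT brains. They were found by gene symbol in the annotation of the array, and they are 5 of the 18193 genes that have a probe set of their own. A probe set is the group of short probes that reads 1 stretch of RNA, and the 5 genes have 17 of the 45037 that were tested: 2 for Gin1, 7 for Armc9, 4 for Farsb, 1 for Ngef and 3 for Col19a1. RNA of whole brains was measured on Affymetrix mouse genome arrays, with 10 arrays from Hdac4KO pups and 10 from WT littermates. All pups were 3 days old and untreated. The Hdac4KO pups were homozygous for the knock-out allele and came from intercrosses of heterozygotes, in a colony kept by crossing heterozygous males to B6CBAF1/OlaHsd females. By the labels each genotype holds 5 females and 5 males. None of the sources used here says which part of Hdac4 the allele lacks.

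Hdac4 encodes a class IIa histone deacetylase, a protein that holds back transcription through factors such as MEF2 and RUNX2 and that shuttles between nucleus and cytoplasm. Genes on the same chromosome as a targeted gene are inherited with it more often the closer they lie, so a homozygous mutant pup also carries 2 copies of the stretch of chromosome around the targeted allele, with whatever variants that stretch holds. In an intercross of this kind the loss of Hdac4 and the alleles linked to it cannot be told apart. The 5 genes share no known function. Gin1 is a gene that mammals derived from the integrase of a mobile element. Armc9 encodes an armadillo repeat protein of the base and tip of the primary cilium, and in humans its mutations cause Joubert syndrome. Farsb encodes the beta subunit of the cytosolic phenylalanyl-tRNA synthetase, which works in complex with the alpha subunit, Farsa. Ngef encodes ephexin-1, an exchange factor that links EphA receptors to RhoA in the collapse of axonal growth cones. Col19a1 encodes the chain of collagen XIX, a collagen of the FACIT class (collagens with interrupted triple helices), which in the mouse brain is made by interneurons.

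Counted in all RefSeq genes of GRCm38.p6, Gin1 was 101 genes after Hdac4, Ngef 106 before it, Armc9 152 before it, Farsb 264 before it and Col19a1 1077 before it. Counted only in the genes that the array measured, the same distances were 40, 38, 60, 101 and 388 genes, so the limit of 100 genes is met by all 5 only in the first count. On the inner side of that limit, the called genes farthest from Hdac4 were D2hgdh at 64 genes (log2 fold change −0.26), Ing5 at 62 genes (0.51), and Bok and Sh3bp4, both at 58 genes (0.37 and 0.31). Sh3bp4 lies before Hdac4 and the others after it. On its outer side, Gin1 was the closest called gene, followed by Pam at 102 genes and B230216N24Rik at 105 genes. Of the 982 measured genes beyond the limit, 63 had at least 1 called probe set, and the 5 genes are among these 63.

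The promoters of 3 of the genes are printed because the probe sets of Gin1 and Armc9 went apart between the genotypes, and because Armc9 and Farsb carried the same element. Each is the 250 bases before the RefSeq start of the gene on GRCm38.p6, given 5′ to 3′ on the strand of the gene, and it is reference sequence that was not read from these mice. Capitals mark the matches to CACGTG (an E-box), TGTGGT (the core that RUNX factors bind) and GGGCGG (a GC box), searched on both strands. CACGTG reads the same on both, and a match to GGGCGG on the other strand appears as CCGCCC. The windows are chr1:97769922-97770171 (plus strand) for Gin1, chr1:86154530-86154779 (plus strand) for Armc9 and chr1:78488898-78489147 (minus strand) for Farsb.
Gin1: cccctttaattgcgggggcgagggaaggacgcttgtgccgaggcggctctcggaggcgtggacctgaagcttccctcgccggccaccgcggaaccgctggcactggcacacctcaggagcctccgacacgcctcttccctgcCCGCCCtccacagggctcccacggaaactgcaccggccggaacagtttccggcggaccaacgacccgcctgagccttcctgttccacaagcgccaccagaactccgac
Armc9: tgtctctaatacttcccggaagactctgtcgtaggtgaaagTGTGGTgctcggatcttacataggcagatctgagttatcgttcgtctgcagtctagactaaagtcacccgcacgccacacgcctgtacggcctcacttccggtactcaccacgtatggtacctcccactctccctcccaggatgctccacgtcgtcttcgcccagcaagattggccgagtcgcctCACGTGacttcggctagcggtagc
Farsb: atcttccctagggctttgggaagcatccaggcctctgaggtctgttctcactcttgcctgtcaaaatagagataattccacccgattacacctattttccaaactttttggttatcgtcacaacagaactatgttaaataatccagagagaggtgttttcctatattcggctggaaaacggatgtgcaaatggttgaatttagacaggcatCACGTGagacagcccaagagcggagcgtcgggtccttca
CACGTG lay 24 to 19 bases before the start of Armc9 and 39 to 34 bases before that of Farsb, and 6.02% of the 32851 promoter windows of the same length hold it. Armc9 also held TGTGGT 209 to 204 bases before its start, a match found in 14% of the windows. GGGCGG was found 108 to 103 bases before the start of Gin1 and 239 to 234 bases before that of Ngef, and 32.7% of the windows hold it. The MEF2 element, which 2.92% of the windows hold, was in none of the 5, and the window of Col19a1 held none of the 4 motifs. The GC content of the windows was 68% for Gin1, 59.6% for Ngef, 56% for Armc9, 52% for Col19a1 and 45.2% for Farsb.

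The deposited values are log2 signals, and each array had its median at 6.26 to 6.32. Hdac4 was lower in Hdac4KO brains at each of its 3 probe sets, with log2 fold changes of −1.39, −1.19 and −0.46. At the first of these (1454693_at) the mean was 6.53 ± 0.36 in Hdac4KO and 7.92 ± 0.16 in WT brains (SD, n = 10 each). Hdac4KO replicate 10 and WT replicate 8 stood apart from the rest of their genotypes at Hdac4, and values are given without them below. In 3 arrays Xist and Y-linked genes went against the sex label: Hdac4KO replicate 10, WT replicate 5 and WT replicate 9. Of these, Hdac4KO replicate 10 had both Xist at 12.3 and Kdm5d at 6.88, where the other arrays with high Xist had Kdm5d at 3.15 or below and the arrays with low Xist had it at 7.81 or above. The brightest probe sets of all 7 neuronal, all 5 astroglial, all 4 measured oligodendroglial and all 6 meningeal markers were above the array median in every array, and those of 4 of 5 muscle markers and both liver markers were below it in every array. The mean level of the meningeal markers was 9.01 to 9.48 in Hdac4KO and 9.16 to 9.60 in WT arrays. Of their 12 probe sets 0 were called, while 3 were lower and 0 higher at an unadjusted p under 0.05 (limma, median −0.04). Of 10 probe sets of choroid plexus and ependymal markers 1 was called (10%, against 2.06% of all), of Ttr (log2 fold change −0.14, adjusted p = 0.0420, limma). In that list 5 were lower and 0 higher at an unadjusted p under 0.05 (median −0.10). These unadjusted counts have no share of all probe sets beside them. The mean level of the choroid plexus and ependymal list was 7.74 to 7.93 in Hdac4KO and 7.76 to 8.07 in WT arrays. The part of these cells in the results was not tested. The difference between the 3′ and 5′ ends of the control transcripts, a sign of RNA integrity, was 0.22 ± 0.03 in Hdac4KO and 0.19 ± 0.03 in WT arrays (SD, n = 10 each, p = 0.082, two-sided permutation test). Its part in the results below was not tested beyond the fits that held it as a covariate.

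Ngef and Col19a1 were higher in Hdac4KO brains, Farsb was higher at 1 of its probe sets, and Gin1 and Armc9 had probe sets in both directions. Of the 17 probe sets, 8 passed an adjusted p of 0.05 in limma, against 2.06% of all probe sets, and 6 of the 8 were higher and 2 lower in Hdac4KO brains, against 1.05% higher and 1.01% lower of all. Nothing can be read from this count, because the same contrast was used to pick the genes. The other 9 probe sets had log2 fold changes between −0.14 and 0.08. The median over the 17 was 0.07, and over all probe sets it was 0.00. In 1 of the 17, a probe set of Col19a1, the genotypes did not overlap, against 0.0777% of all. Of the 17, 9 had a signal above the median of the array in 10 or more arrays, so that the other 8 read dim signals. In RNA of whole brains, fewer cells of a type and less RNA per cell cannot be told apart. The fold changes and errors below describe the genes, with no test.

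**Figure D1:**
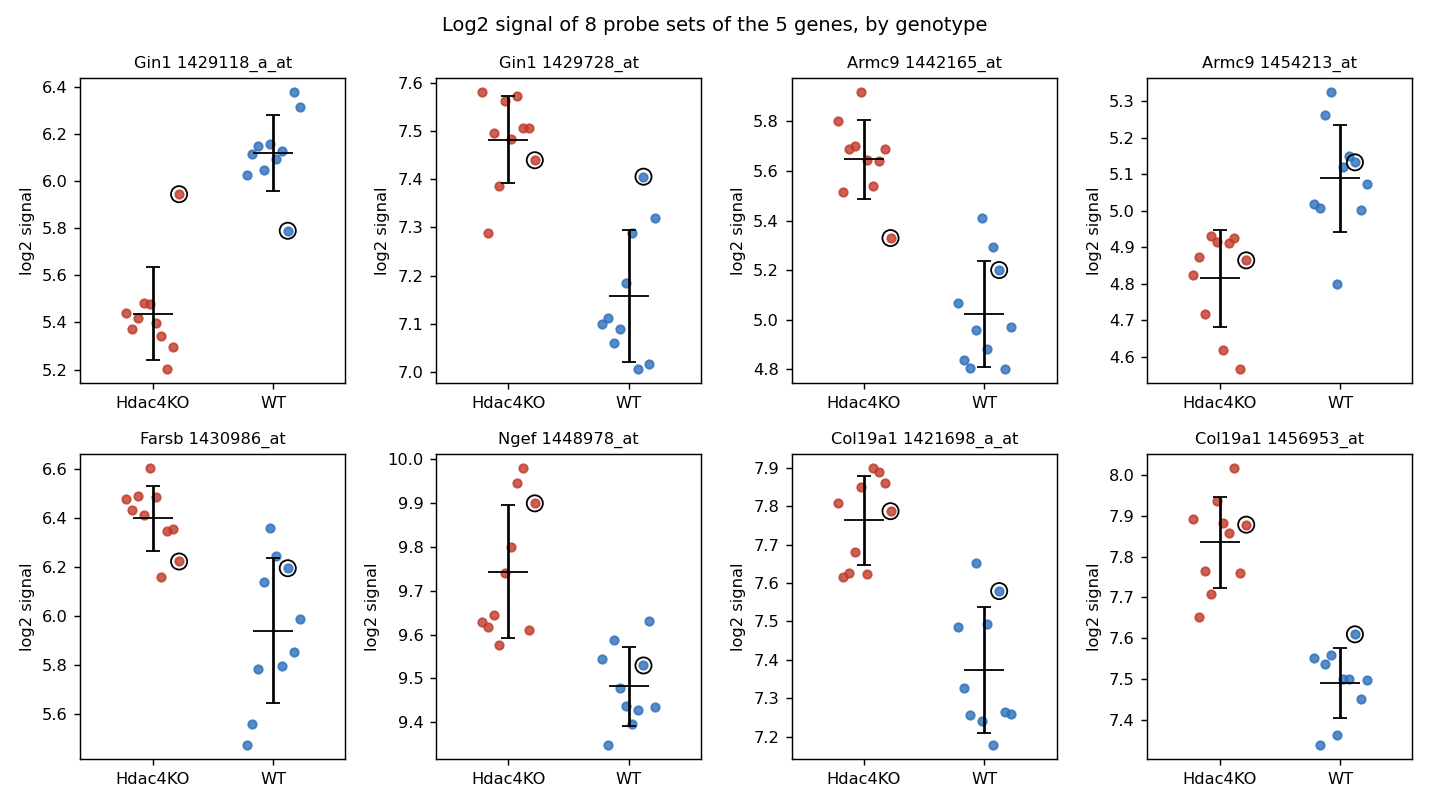
Log2 signal (vertical axes) of the 8 called probe sets of the 5 genes in each array, Hdac4KO left in red and WT right in blue, with the mean and SD (n = 10 each); circles mark Hdac4KO replicate 10 and WT replicate 8. Only Col19a1 1456953_at shows no overlap, and at Gin1 1429118_a_at the 2 circled arrays lie between the other arrays of the genotypes.

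Gin1 went both ways. Its probe set 1429118_a_at was 5.20, 5.41 and 5.94 (lowest, median and highest log2 signal) in Hdac4KO arrays and 5.79, 6.12 and 6.38 in WT arrays. All but 1 of the Hdac4KO arrays lay below the lowest WT array, and the exception was Hdac4KO replicate 10. The mean was 5.44 ± 0.20 in Hdac4KO and 6.12 ± 0.16 in WT brains (SD, n = 10 each), a log2 fold change of −0.68 (SE 0.08). Without the arrays labelled Hdac4KO 10 and WT 8 the ranges were 5.20 to 5.48 in Hdac4KO and 6.02 to 6.38 in WT arrays (n = 9 each), which do not overlap, and the log2 fold change was −0.77. The other probe set, 1429728_at, is the brighter and was 7.29, 7.50 and 7.58 in Hdac4KO arrays and 7.005, 7.11 and 7.41 in WT arrays. Here 8 of the 10 Hdac4KO arrays lay above the highest WT array, which was WT replicate 8. The mean was 7.48 ± 0.09 in Hdac4KO and 7.16 ± 0.14 in WT brains (SD, n = 10 each), a log2 fold change of 0.32 (SE 0.05). The name of the first probe set, ending in _a_at, marks probes that read several transcripts of 1 gene. Which transcripts the probe sets read is not given in the files used here, so a level of Gin1 as a whole cannot be given.

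The place of single arrays between the genotypes can be given as the percent of the way from the mean of the other WT arrays to the mean of the other Hdac4KO arrays, where 0 is a typical WT and 100 a typical Hdac4KO array. Hdac4KO replicate 10 was at 32.8% for Hdac4 (1454693_at) and at 23.8% for the probe set of Gin1 that was lower in Hdac4KO brains, nearer to WT at both. WT replicate 8 was at 29.3% for Hdac4 and at 51.1% for Gin1. At the other probe sets of Hdac4, Hdac4KO replicate 10 was at 32.2% and 40.5%, and WT replicate 8 at 36.7% and 109%, the last beyond the Hdac4KO mean. At the probe set of Gin1 that was higher, Hdac4KO replicate 10 was at 85.6% and WT replicate 8 at 78.2%. They were at 46.6% and 30.7% for the probe set of Armc9 that was higher, and at 59% and 58.2% for the one of Farsb. Other arrays also lay midway at these dim probe sets, among them WT replicate 5 at 64.4% for Armc9 and Hdac4KO replicate 7 at 45.4% for Farsb. The measure was added after seeing the data.

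**Figure D2:**
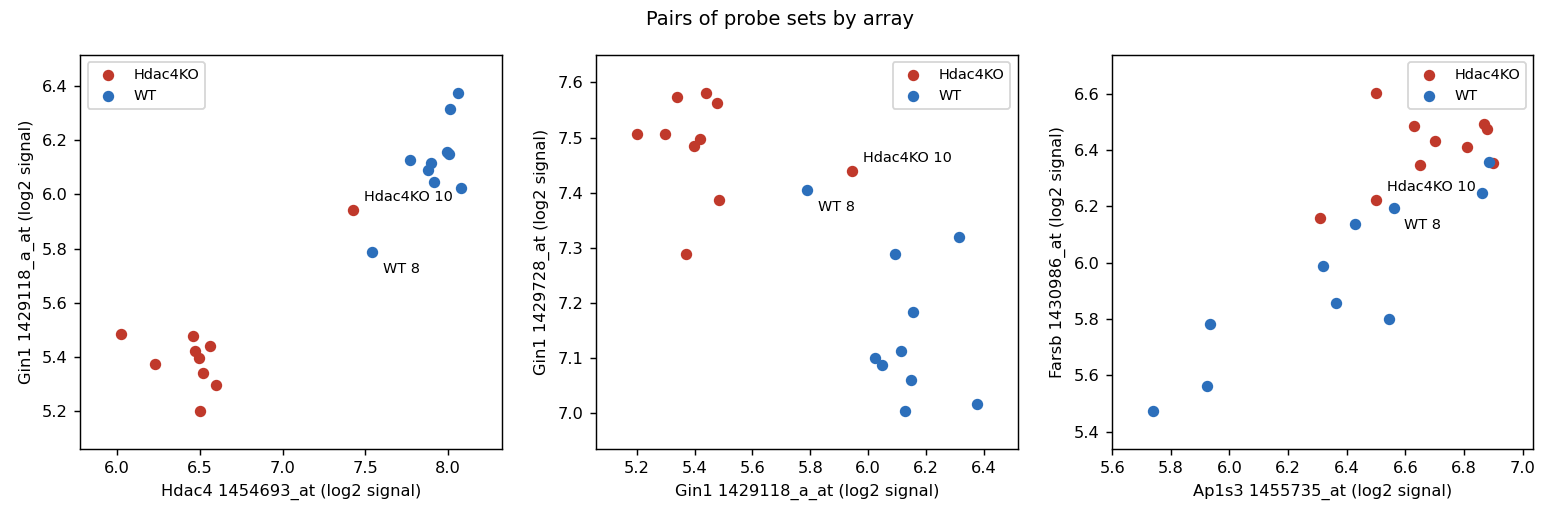
Pairs of probe sets by array, log2 signal on both axes, Hdac4KO in red and WT in blue: Hdac4 against the probe set of Gin1 that was lower in Hdac4KO, the 2 probe sets of Gin1 against each other, and Ap1s3 against Farsb. Hdac4KO 10 and WT 8 lie between the genotypes in the first panel, and WT arrays spread widely in the last.

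Armc9 also went both ways, and 5 of its 7 probe sets were not called. Its probe set 1442165_at was 5.33, 5.67 and 5.92 in Hdac4KO arrays and 4.80, 4.97 and 5.41 in WT arrays (lowest, median and highest). All Hdac4KO arrays but replicate 10 lay above the highest WT array, and both ranges are below the array median. The mean was 5.65 ± 0.16 in Hdac4KO and 5.02 ± 0.21 in WT brains (SD, n = 10 each), a log2 fold change of 0.62 (SE 0.08). Without the arrays labelled Hdac4KO 10 and WT 8 the ranges were 5.52 to 5.92 in Hdac4KO and 4.80 to 5.41 in WT arrays, with no overlap, and the log2 fold change was 0.68. The probe set 1454213_at was 4.57, 4.87 and 4.93 in Hdac4KO arrays and 4.80, 5.10 and 5.32 in WT arrays. Only 3 Hdac4KO arrays lay below the lowest WT array. Its log2 fold change was −0.27 (SE 0.06), from 4.81 ± 0.13 in Hdac4KO and 5.09 ± 0.15 in WT brains (SD, n = 10 each), and it lost its call without those arrays (−0.27) and with the 3′ minus 5′ difference as a covariate (−0.28), though the value itself hardly moved. The brightest probe set of the gene, 1435073_a_at, averaged 7.71 in Hdac4KO and 7.77 in WT brains, a log2 fold change of −0.07 that was not called. The next brightest, 1428399_a_at, averaged 6.997 in Hdac4KO and 6.92 in WT brains (0.07, not called). The remaining 3 probe sets, all dim, had log2 fold changes of 0.03, 0.01 and −0.14, not called.

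**Figure D3:**
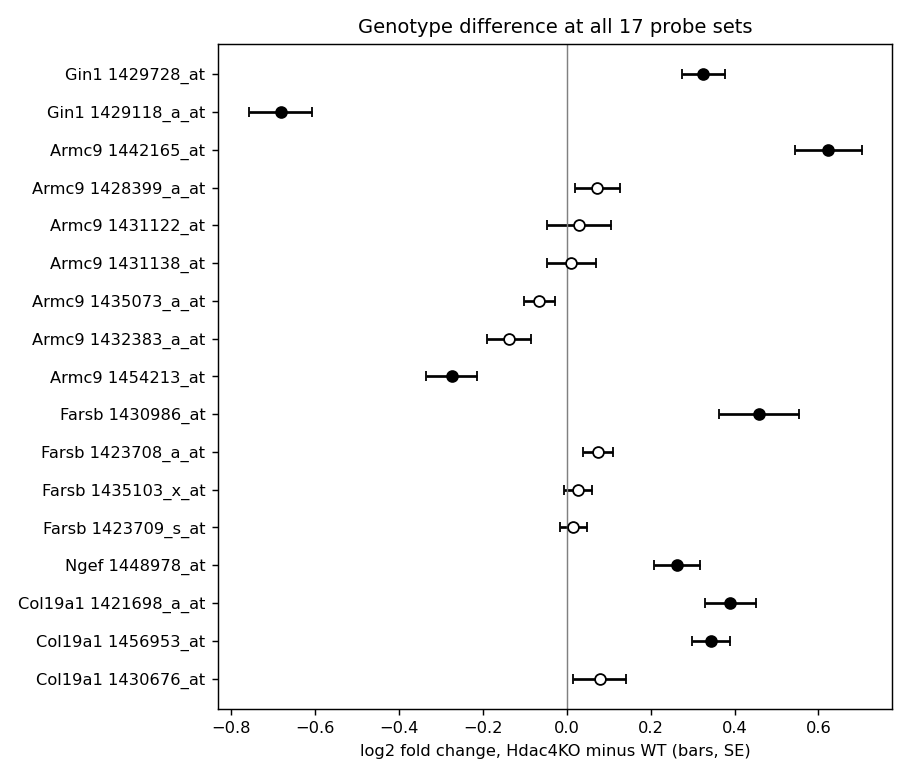
Log2 fold change of Hdac4KO minus WT (horizontal axis, bars are SE, n = 10 each) at all 17 probe sets, filled where called and open where not. Gin1 and Armc9 have filled points on both sides of 0, and 3 of 4 Farsb probe sets and 5 of 7 Armc9 probe sets are open.

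Farsb differed at 1 of its 4 probe sets, and this was the dimmest of them. The probe set 1430986_at was 6.16, 6.42 and 6.60 in Hdac4KO arrays and 5.47, 5.92 and 6.36 in WT arrays (lowest, median and highest). In 6 Hdac4KO arrays it was above the highest WT array, and the spread was wider in WT. The mean was 6.40 ± 0.13 in Hdac4KO and 5.94 ± 0.30 in WT brains (SD, n = 10 each), a log2 fold change of 0.46 (SE 0.10), or 0.51 without the arrays labelled Hdac4KO 10 and WT 8. With the 3′ minus 5′ difference as a covariate it was 0.43 and no longer called. The probe set 1423708_a_at averaged 9.41 in Hdac4KO and 9.33 in WT brains, a log2 fold change of 0.07 that was not called. The brightest ones, 1423709_s_at and 1435103_x_at, had log2 fold changes of 0.02 and 0.03, but their suffixes mark probes that can also read other genes. Where the probe set that moved lies in the gene is not given in the files used here.

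Ngef has a single probe set (1448978_at), the brightest of the 8 called. It was 9.58, 9.69 and 9.98 in Hdac4KO arrays and 9.35, 9.46 and 9.63 in WT arrays (lowest, median and highest). In Hdac4KO brains 6 arrays lay above the highest WT array, and 3 of the Hdac4KO arrays formed the upper end of the range at 9.90 to 9.98, among them replicate 10. The mean was 9.74 ± 0.15 in Hdac4KO and 9.48 ± 0.09 in WT brains (SD, n = 10 each), a log2 fold change of 0.26 (SE 0.05), or 0.25 without the arrays labelled Hdac4KO 10 and WT 8. Hdac4KO replicate 10 was at 171% of the way between the genotypes for Ngef, the opposite side from its place at Hdac4. The neuronal markers Nefl (1426255_at, log2 fold change −0.28, adjusted p = 0.0427) and Syt1 (1431191_a_at, −0.38, adjusted p = 0.0310) were lower at those probe sets. They were 2 of the 17 neuronal ones (11.8%, against 2.06% of all, limma), while the brightest of Syt1 had 0.14 (adjusted p = 0.0504). At an unadjusted p under 0.05, 5 of the 17 were lower and 1 was higher, with no share of all given here. The median log2 fold change of the 17 was −0.00. The mean level of the neuronal list was 12.97 to 13.07 in Hdac4KO and 12.97 to 13.05 in WT arrays, and its part in the value of Ngef was not tested. With the 3′ minus 5′ difference as a covariate the log2 fold change of Ngef was 0.25 and no longer called.

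Col19a1, the farthest of the 5 from Hdac4, was higher at 2 of its 3 probe sets. The probe set 1456953_at was 7.65, 7.87 and 8.02 in Hdac4KO arrays and 7.34, 7.50 and 7.61 in WT arrays (lowest, median and highest). Every Hdac4KO array lay above every WT array. The mean was 7.83 ± 0.11 in Hdac4KO and 7.49 ± 0.09 in WT brains (SD, n = 10 each), a log2 fold change of 0.34 (SE 0.04). The probe set 1421698_a_at was 7.61, 7.80 and 7.90 in Hdac4KO arrays and 7.18, 7.30 and 7.65 in WT arrays. There 7 Hdac4KO arrays lay above the highest WT array. The mean was 7.76 ± 0.12 in Hdac4KO and 7.37 ± 0.16 in WT brains (SD, n = 10 each), a log2 fold change of 0.39 (SE 0.06). Without the arrays labelled Hdac4KO 10 and WT 8 the values were 0.35 and 0.41. The third probe set, 1430676_at, was dim, at 4.28 in Hdac4KO and 4.20 in WT brains (0.08, not called). At Col19a1, Hdac4KO replicate 10 was at 114% and 107% of the way between the genotypes, on the Hdac4KO side.

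Sex, which the choice of genes did not use, gave no call at the 17 probe sets. The female minus male difference, averaged over the genotypes, was between −0.12 and 0.10 in log2 signal, and the lowest adjusted p was 0.9998 (limma, 4 groups). Over all probe sets 0 passed an adjusted p of 0.05, so that Xist and the Y-linked genes were not called either. A fit that missed them cannot show that sex has no effect at the 17. In it 1556 (3.45%) had an unadjusted p under 0.05, of which 0 were among the 17. Without the 3 arrays that went against their sex label, 33 of all probe sets (0.0733%) differed by sex, again with 0 of the 17, and the lowest adjusted p among these was 0.984. The genotype difference was then compared between the sexes. Again 0 of all probe sets passed an adjusted p of 0.05, and 2409 (5.35%) had an unadjusted p under 0.05, of which 2 belong to the 5 genes. At Col19a1 1421698_a_at the Hdac4KO minus WT difference was 0.55 in females and 0.23 in males, a difference of 0.32 (SE 0.10, adjusted p = 0.915). At Gin1 1429728_at it was 0.44 in females and 0.21 in males, a difference of 0.23 (SE 0.09, adjusted p = 0.917). Neither passed the adjustment over all probe sets. Without the 3 arrays the difference at Col19a1 1421698_a_at was 0.40 (SE 0.10, adjusted p = 0.474), and it was then the only one of the 17 with an unadjusted p under 0.05.

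Probe sets of the same gene were set against each other within each genotype, which leaves the genotype difference out. Over 31 pairs of probe sets and both genotypes, 62 correlations were computed, and 0 passed the adjustment by Pearson's r or Spearman's rho, while 3 had an unadjusted p of r under 0.05 (two-sided permutation tests). The 2 probe sets of Gin1 had r = −0.17 in Hdac4KO arrays (p = 0.601, adjusted p = 0.866, rho = −0.25, p = 0.495, n = 10, permutation test). In WT arrays they had r = −0.42 (p = 0.233, adjusted p = 0.722, rho = −0.30, p = 0.407, n = 10, permutation test). Leaving out the 2 arrays farthest from the median at 1429118_a_at moved r to 0.00 in Hdac4KO and to 0.53 in WT arrays, so the sign in WT rests on those arrays. The probe sets of Armc9 that were higher and lower had r = −0.07 in Hdac4KO (p = 0.84) and −0.40 in WT arrays (p = 0.26, n = 10 each, permutation tests), with rho = 0.03 in Hdac4KO and −0.04 in WT arrays. Without the 2 arrays farthest from the median at 1442165_at r was −0.26 in Hdac4KO and 0.02 in WT arrays, so the WT value rests on those arrays. The 2 called probe sets of Col19a1 had r = 0.62 in Hdac4KO (p = 0.06) and 0.56 in WT arrays (p = 0.0948, n = 10 each, permutation tests, both adjusted p = 0.593), with rho = 0.455 in Hdac4KO and 0.503 in WT arrays. Without the 2 arrays farthest from the median at 1421698_a_at r was 0.65 in Hdac4KO and 0.26 in WT arrays. With 10 arrays a genotype, a relation of this size was not detectable after adjustment.

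**Figure D4:**
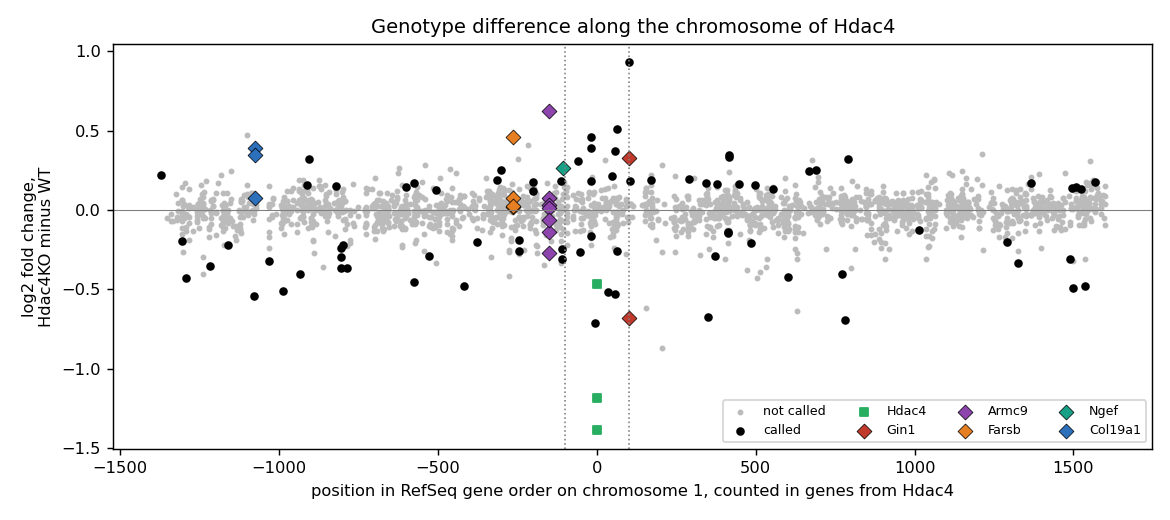
Log2 fold change of Hdac4KO minus WT (vertical axis) for the measured probe sets of chromosome 1 by position in RefSeq gene order from Hdac4 (horizontal axis, in genes); black points were called, grey ones were not, diamonds are all 17 probe sets of the 5 genes and squares Hdac4. The dotted lines at 100 genes lie just inside Gin1 and Ngef, and called probe sets are found along the whole chromosome.

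Calls were set out along the chromosome to place the 5 genes among the others. Within 100 genes of Hdac4, 13 of 140 probe sets were called (9.29%), with Hdac4 left out. Beyond that, 74 of 2005 were called (3.69%), or 66 of 1988 (3.32%) without the 5 genes, and on the other chromosomes 712 of 32593 (2.18%). These shares were not tested against each other. Among the called probe sets beyond 100 genes, 3 had no overlap between the genotypes, which belong to Col19a1, Pam and Nucks1. Calls in both directions within 1 gene were found in 9 of the 9010 genes with more than 1 probe set, of which 610 had any call. Of the 9, 3 were on chromosome 1, namely Gin1, Armc9 and Bmpr2. Gin1 and Armc9 were picked because they shift with genotype, so nothing about the chromosome can be read from this count.

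The nearest neighbours of the 5 genes, 5 measured genes on each side, were chosen by position alone. Of their 100 probe sets, 3 were higher and 4 lower (7%, against 2.06% of all), and the median log2 fold change was −0.00. Around Gin1, 2 of 13 were called. Pam, the next measured gene after Gin1, encodes the monooxygenase that amidates neuropeptides. It was 9.40 ± 0.14 in Hdac4KO and 8.47 ± 0.19 in WT brains (SD, n = 10 each), so that it rose by 0.93 in log2 signal (SE 0.07, adjusted p = 1.89e-07, limma) and the genotypes did not overlap. B230216N24Rik, a cDNA with no assigned role here, rose by 0.18 at the dimmer of its 2 probe sets (adjusted p = 0.0309, limma), and the brighter one had 0.04 (not called). Ppip5k2, an inositol pyrophosphate kinase on the other side of Gin1, had a difference of −0.05 (adjusted p = 0.735).

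Around Armc9 0 of 16 and around Farsb 0 of 20 probe sets were called at an adjusted p of 0.05 in limma. The closest measured genes to Armc9 were Htr2b, a serotonin receptor (log2 fold change −0.07), and B3gnt7, a glycosyltransferase (−0.01). Those closest to Farsb were Sgpp2, a phosphatase of sphingosine 1-phosphate (0.16, adjusted p = 0.260), and Mogat1, an acyltransferase of lipid synthesis (0.00). Around Ngef 3 of 22 were called. Gigyf2 and Eif4e2 encode proteins that bind each other and repress translation, and the probe sets of each differed among themselves. Of the 4 probe sets of Gigyf2, 2 fell, by 0.25 and by 0.31 (adjusted p = 0.0333 and 0.0445), while the brightest had 0.07 (adjusted p = 0.288) and the dimmest 0.02 (limma). Of the 5 of Eif4e2, the brightest rose by 0.19 (adjusted p = 0.0236), while the next 2 in brightness had −0.15 (adjusted p = 0.0501) and −0.20 (adjusted p = 0.0883, limma). The closest genes to Ngef, Snorc (0.10) and Neu2, a sialidase (0.15, adjusted p = 0.246), did not pass. Around Col19a1 2 of 29 were called, each a dim probe set of a gene whose brightest probe set was not called. Fam135a fell by 0.54 at 1 of 4 probe sets (adjusted p = 0.0381), and its brightest had 0.09 (adjusted p = 0.162, limma). Phf3, which encodes a regulator of RNA polymerase II, fell by 0.32 at 1 of 9 (adjusted p = 0.0426), and its brightest had 0.02 (adjusted p = 0.846, limma). The other 7 of Phf3 ran from −0.24 to 0.15. Col9a1, a FACIT collagen next to Col19a1, had 0.04 and −0.03, and Lmbrd1, a lysosomal protein of cobalamin transport, had 0.03, 0.05 and 0.02 at its 3 probe sets. With the 3′ minus 5′ signal as a covariate only Pam of the neighbours kept its call, and the adjusted p of the others was 0.0740 to 0.174. Leaving out 1 array gave 1 to 10 calls among these neighbours.

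Genes related to each of the 5 were then read from lists chosen by shared function, protein class or origin. The lists were chosen with earlier results of these data known, so their counts of calls are a description only. Their counts at an unadjusted p under 0.05 have no share of all probe sets beside them. No shift of a list can be read from those counts. For Farsb, 21 of 22 cytosolic aminoacyl-tRNA synthetases and scaffold proteins were measured, and 0 of their 40 probe sets was called in limma (8 higher and 3 lower at an unadjusted p under 0.05, median log2 fold change 0.00). Farsa, the partner subunit, averaged 9.15 ± 0.08 in Hdac4KO and 9.10 ± 0.09 in WT brains at its brightest probe set (SD, n = 10 each, log2 fold change 0.05, adjusted p = 0.513). The smallest p values of the list belonged to Eprs (−0.12, adjusted p = 0.126), Vars (0.08, adjusted p = 0.145), Nars (0.07, adjusted p = 0.160) and Eef1e1 (−0.06, adjusted p = 0.170). For Ngef, all 16 ephexins, EphA receptors, ephrins and effectors were measured, with 0 of 39 probe sets called in limma (2 higher and 5 lower at an unadjusted p under 0.05, median −0.00). Epha4, the receptor known to act through ephexin-1, came closest at −0.42 (adjusted p = 0.0563), but its brightest probe set had −0.00. Its other probe sets had −0.27, −0.25 and 0.13, not called. Epha4 is also among the neighbours of Farsb on chromosome 1. Efna1 had 0.14 (adjusted p = 0.164), Arhgef15 −0.10 (adjusted p = 0.197) and Efna2 −0.07 (adjusted p = 0.263).

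For Armc9, 18 of 22 genes of the ciliary base and transition zone were measured, and 3 of 29 probe sets were called (10.3%, against 2.06% of all, median 0.01), with 2 higher and 5 lower at an unadjusted p under 0.05. Tctn1, of the transition zone, rose by 0.14 (adjusted p = 0.0465). Ccdc66, whose protein binds ARMC9 in human cells, fell by 0.25 (adjusted p = 0.0198), and Ahi1, another Joubert syndrome gene, by 0.43 (adjusted p = 0.0362, limma). The brighter probe sets of Ccdc66 and Ahi1 had −0.02 and 0.03, and B9d2 had 0.15 (adjusted p = 0.0501). Togaram1, whose protein also binds ARMC9, had 0.00 at its brightest probe set. For Col19a1, all 8 other FACIT collagen genes were measured and 0 of 21 probe sets was called in limma (2 higher and 1 lower at an unadjusted p under 0.05, median 0.01). Col14a1 (0.15, adjusted p = 0.173), Col9a3 (−0.18, adjusted p = 0.222), Col20a1 (0.13, adjusted p = 0.241) and Col12a1 (−0.06, adjusted p = 0.587) had the smallest p values. For Gin1, 8 of 10 genes derived from retroelements were measured, and 2 of 11 probe sets were called (18.2%, against 2.06% of all, median 0.00), with 1 higher and 3 lower at an unadjusted p under 0.05. Pnmal2 fell by 0.90 (adjusted p = 0.0208) and Pnmal1 by 0.22 (adjusted p = 0.0490, limma), while the brighter probe set of Pnmal2 had 0.00 and the dimmer one of Pnmal1 −0.07. Arc, whose protein forms capsids at synapses, had 0.18 (adjusted p = 0.0857), and Pnma2 had −0.11 (adjusted p = 0.204). None of these 5 calls remained with the 3′ minus 5′ signal as a covariate, where the adjusted p was 0.0918 to 0.197. Without the arrays labelled Hdac4KO 10 and WT 8, 1 call was left over all lists, that of Ccdc66.

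For each of the 5 genes, the probe sets most like it across the 20 arrays were taken by Pearson's r, as a description, since the arrays share their genotypes. The probe set of Gin1 that was lower in Hdac4KO brains was most like Hdac4 itself (r = 0.95 and 0.94) and Stk25 (0.94), a kinase gene near Hdac4. That of Armc9 that was higher was most like 2 probe sets of Prm1, a protamine of sperm (0.91 and 0.90), and Mapkbp1 (0.90). Ngef was most like Cpne7 (0.95), Rprml (0.94) and Syt1 (0.94, at 1433884_at), and Col19a1 was most like Tbl1xr1 (0.89), Mef2a (0.87) and Prkab2 (0.86). Farsb was most like Ap1s3 (0.84), Stxbp6 (0.83) and that same probe set of Armc9 (0.79).

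When each array was taken as its deviation from the mean of its genotype, other genes came first in most cases. Ngef was most like Ap2m1 (r = 0.92), an adaptor of endocytosis, Cyp46a1 (0.92), the cholesterol hydroxylase of neurons, and Rprml (0.91), with r between 0.72 and 0.98 within the genotypes. Ap1s3, a subunit of a clathrin adaptor that lies 17 RefSeq genes from Farsb, again came first for Farsb (0.82), with r = 0.46 in Hdac4KO and 0.90 in WT arrays (n = 10 each). Ap1s3 averaged 6.68 ± 0.20 in Hdac4KO and 6.36 ± 0.39 in WT brains (SD, n = 10 each, log2 fold change 0.32, adjusted p = 0.182, limma). Both genes thus had a wider spread in WT, and their low values came from the same WT arrays in the plot of pairs. Gin1 was most like Niban1 (0.78) and Prelp (0.76), both on chromosome 1, and Clptm1l (0.75), which dropped to 0.41 without Hdac4KO 10 and WT 8. Armc9 was most like Rnf227 (0.75), Trmt13 (0.74) and Zdhhc9 (0.72), and Col19a1 was most like Lmbr1 (0.82), Ecpas (0.81) and Mycbp (0.79). In both rankings the genes named had the highest r in a search over many probe sets. How high r rises by chance in such a search was not tested, so these genes are a description only. Whether the place of Niban1 and Prelp on chromosome 1 is more than chance was not tested either.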

How the data were processed

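Per the labels, biotinylated cRNA was made from 200 ng of total RNA of each brain with the 3′ IVT Express kit. The authors hybridised and scanned the arrays, dropped chips of poor quality and deposited 1 log2 signal for each probe set on each array. None of the sources used here names the normalization. Of 45101 probe sets, 64 controls were left out. In the platform annotation 34945 carry 1 symbol, 932 several and 9160 none, and no gene was named from a probe set with several. RefSeq (GRCm38.p6) gave only gene order and the promoter windows, since the files name no build.

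Genotypes were compared in limma 3.58.1 (lmFit and eBayes, R 4.3.3) without covariates, with Benjamini-Hochberg adjustment over all 45037 probe sets and calls at an adjusted p under 0.05. Sex and its interaction came from a fit of 4 groups. The 2-tailed t-test of the methods was an alternative. Simulated data, in which 200 probe sets were changed, served to test the fit. The members and lists were chosen with earlier results of these data known. Named are all probe sets of the 5 genes, Hdac4, the first neighbours, called neighbours and list members, the 4 smallest p values of a list and the 3 most like probe sets. Genes named outside that rule, such as D2hgdh, Ing5, Bok, Sh3bp4, Nucks1, Bmpr2, Farsa, Togaram1, Syt1, Nefl and Ttr, were picked with their values in view. Each array was taken as a separate pup, so that the number of arrays sets the precision. Whether this holds for Hdac4KO replicate 10, with signals of both Xist and Kdm5d, was not tested. Litters were not part of any fit.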

Additional observations from a re-analysis of the deposited data

Results flagged for a closer look

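In 4 of 40 groups of 10 arrays, each 1 probe set of Hdac4 or of the 5 genes in 1 genotype, the highest or lowest array was separated from the next by more than Dixon's critical share of the range. In independent groups of normally spread values, chance gives about 1 in 20 such groups. The 40 groups share the same 20 arrays, so 4 of 40 cannot be weighed against that rate. The signal of Gin1 1429118_a_at in Hdac4KO replicate 10 was 5.94 (log2), and the next array of that genotype had 5.48. At Hdac4 1436758_at the same array had 7.35, where the next had 6.74, and at Hdac4 1454693_at it had 7.43, where the next had 6.59. WT replicate 8 had 7.36 at Hdac4 1436758_at, below the next WT array at 7.64. These are the arrays that lay between the genotypes at those probe sets of Hdac4 and Gin1, and Hdac4KO replicate 10 is also the array with signals of both Xist and Kdm5d. At Col19a1 and Ngef it lay at or beyond the mean of the other Hdac4KO arrays.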

How the results depend on the processing

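The 8 calls of the 5 genes kept their direction in every alternative run that tested them, 11 that changed 1 choice and 20 that left out 1 array. Their count was 8 with each array left out, 5 with the 3′ minus 5′ difference as a covariate (Farsb, Ngef and Armc9 1454213_at were lost), 4 with dim probe sets left out, where the others were not tested, and 7 without Hdac4KO 10 and WT 8. The log2 fold changes ranged from −0.77 to −0.65 and from 0.31 to 0.36 for Gin1, from 0.59 to 0.68 and from −0.33 to −0.25 for Armc9, from 0.41 to 0.52 for Farsb, from 0.24 to 0.28 for Ngef, and from 0.36 to 0.42 and from 0.32 to 0.36 for Col19a1. Among the neighbours 7 calls became 1 with the covariate, 12 with array weights, and 1 (without Hdac4KO replicate 8) to 10 (without Hdac4KO replicate 2) with 1 array left out, and at most 4 without any 1 of Hdac4KO 5 to 9 or WT 1 to 7. Among the lists of related genes 5 calls became 0 with the covariate and 1 without Hdac4KO 10 and WT 8. They became 3 without the 3 arrays that go against their sex label. With 1 array left out they were 2 to 8 (without WT replicate 9), and at most 3 without any 1 of Hdac4KO 5, 8 and 9 or WT 1 to 8. Pam was called in all 31 alternatives, Eif4e2, Ccdc66 and Pnmal2 in 29, B230216N24Rik in 24, Gigyf2 in 20 and 12, Ahi1 in 17, Phf3 in 15, Fam135a in 13, Tctn1 in 11 and Pnmal1 in 7. Of these, Ccdc66, Phf3, Fam135a and Pnmal1 were tested in 30, because they were left out with the dim probe sets. Over all probe sets 927 calls became 43 with the covariate, 1501 with array weights, 1674 of 22603 without dim probe sets, 327 without Hdac4KO 10 and WT 8, 415 without the 3 arrays, and 351 (without WT replicate 2) to 1715 (without Hdac4KO replicate 2) with 1 array left out, and at most 550 without any 1 of Hdac4KO 5 and 7 to 10 or WT 2 to 7. The cause was not tested. The t-test of the methods gave 1002, and the scaling alternatives moved the median of all probe sets by at most 0.0015.

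Both genotypes use the same replicate numbers, and none of the sources used here says what a number marks. Of 10 pairs, 1 correlated above 0.1 in its deviations (−0.15 to 0.16), and 1 WT array of 10 correlated best with its own number. These values show no pairing of arrays by number, but they cannot tell whether a number marks anything else. With the replicate number as a block, 948 probe sets were called over all, 308 higher and 640 lower, against 474 and 453 without it. Of these calls, 8 were of the 5 genes, 8 of the neighbours and 5 of the lists of related genes. The number of arrays and the dim signals of 8 of the 17 probe sets limit how small a difference can be seen.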
